A study of Mus musculus with 6 samples.

Results

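The receptor tyrosine kinases described here are 10 growth factor receptor genes of the mouse, chosen by name: *Egfr*, *Erbb2*, *Erbb3*, *Erbb4*, *Igf1r*, *Insr*, *Fgfr1*, *Fgfr3*, *Met* and *Pdgfrb*. Of these, 9 had a row among the 12125 genes of the normalized count table, and *Pdgfrb*, the receptor for platelet-derived growth factor B, had none. They were measured by RNA sequencing in 6 libraries of 500 sorted kidney cells, each from a mouse carrying Col1a2-CreERT2 and a KFP reporter. Cre recombinase is driven here by the promoter of *Col1a2*, a collagen gene of fibroblasts, acts after tamoxifen (TMX), and switches on KFP, the Katushka fluorescent protein. The control group was Trf1+/+ (3 libraries) and the other group Trf1flox/flox (3 libraries), in which Cre removes *Trf1*, the telomere-binding shelterin gene named *Terf1* in the files. Both groups, of male and female mice, received TMX by intraperitoneal injection 3 times a week for 8 weeks, starting at 6 to 8 weeks of age. Cells were sorted by CD29, an integrin of the cell surface, and KFP. The libraries are numbered 1 to 3 within each genotype only to name them.

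Receptor tyrosine kinases span the cell membrane once. A growth factor bound outside brings receptor chains together, the kinase domains inside phosphorylate tyrosines, and adaptor proteins that dock there start the Ras and phosphoinositide 3-kinase relays. In the kidney, EGF and HGF, the ligands of *Egfr* and *Met*, are known for their action on tubule epithelium, and PDGF receptors are known as receptors of interstitial fibroblasts and pericytes.

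The 9 receptors with a row share the catalytic loop of the kinase domain. Its coding sequence is shown because all 9 carry it, so that it can be compared base by base. Each line gives 24 bases of the coding strand, 5′ to 3′, read from GRCm38 within a single coding exon of the GENCODE annotation, with the codon of the catalytic aspartate in capitals.
Egfr, chr11:16904338-16904361, plus strand: caccgtGACttggcagccaggaat
Erbb2, chr11:98434247-98434270, plus strand: cacaggGACctagctgcccgaaac
Erbb3, chr10:128572533-128572556, minus strand: cataggGACcttgcgctccggaat
Erbb4, chr1:68080739-68080762, minus strand: catcggGATctggcagcccgcaat
Igf1r, chr7:68212096-68212119, plus strand: cacagaGACcttgctgctaggaac
Insr, chr8:3161376-3161399, minus strand: caccggGACctggcagctcgaaac
Fgfr1, chr8:25572344-25572367, plus strand: caccgaGACctggctgctaggaac
Fgfr3, chr5:33734353-33734376, plus strand: cacagaGACttggctgccagaaac
Met, chr6:17562239-17562262, plus strand: cacagaGACttagctgcaagaaac
Between pairs of receptors, 13 to 22 of these 24 bases were identical. The closest pairs were *Igf1r* with *Fgfr1* and *Fgfr3* with *Met*, each with 22 identical bases, and even these stretches were not the same. *Igf1r* and *Insr*, which are close relatives, had 18 identical bases, so for this pair the number of identical bases did not follow kinship. The comparison is of bases only and does not measure likeness of the encoded residues.

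The libraries held 10263382 to 12248797 reads on the listed genes. A normalized count is the number of reads divided by a size factor per library, and 1 read was worth 0.689 to 1.09 normalized counts. Levels of 3 reads or fewer were treated as at the floor, a limit that covers counting error only. The library labelled Trf1+/+ replicate 1 stood apart: 8967 genes were above 0 there, with a median of 13.4 normalized counts where the other 5 libraries had medians of 118 to 148. *Terf1* was at 0.891, 253 and 235 normalized counts in Trf1+/+ libraries and at 110.0, 7.65 and 12.4 in Trf1flox/flox libraries. The first of these values is a single read, in a library labelled Trf1+/+ that also lacked many other genes. Where a gene averaged 100 or more normalized counts outside that library, it was at 0 inside it in 12.9% of cases. The same share was 0.932% to 9.01% for the other 5 libraries. The single read therefore cannot decide whether the label is right, and its cause was not tested. The library labelled Trf1flox/flox replicate 1 had 110.0 (128 reads), more than the 7.65 and 12.4 of the rest of its group. Its label gives the genotype and not the share of cells in which Cre acted, and the cause of this level was not tested. The labels were kept for grouping. Trf1flox/flox replicate 2 had the next fewest genes above 0, with 9733. The cells are labelled fibroblasts, but only 4 of 15 fibroblast markers had a row, and *Col1a2*, whose promoter drives Cre, was at 0 to 1.78 normalized counts. All 12 proximal tubule markers and all 9 markers of the loop of Henle and distal tubule had a row. The rule by which genes were given a row is not stated. The immune marker *C1qb* had a row although it was at 0 in all 6 libraries. A gene without a row, such as *Pdgfrb*, therefore has no value here and is not shown to be unexpressed. Summed levels of the proximal tubule markers were 33997 to 166184 normalized counts in Trf1+/+ and 42744 to 177864 in Trf1flox/flox, and those of the loop and distal tubule 94775 to 145845 and 66723 to 155096. The sums of the 4 listed fibroblast markers were 406 to 1680 in Trf1+/+ and 94.5 to 1196 in Trf1flox/flox, most of it from *Gsn*, which encodes an actin-severing protein. Of 10 markers of pericytes and smooth muscle, the cells known for *Pdgfrb*, 3 had a row, and their sum was 0 to 280 normalized counts. In such bulk samples, fewer cells of a type and less RNA per cell cannot be told apart.

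**Figure D1:**
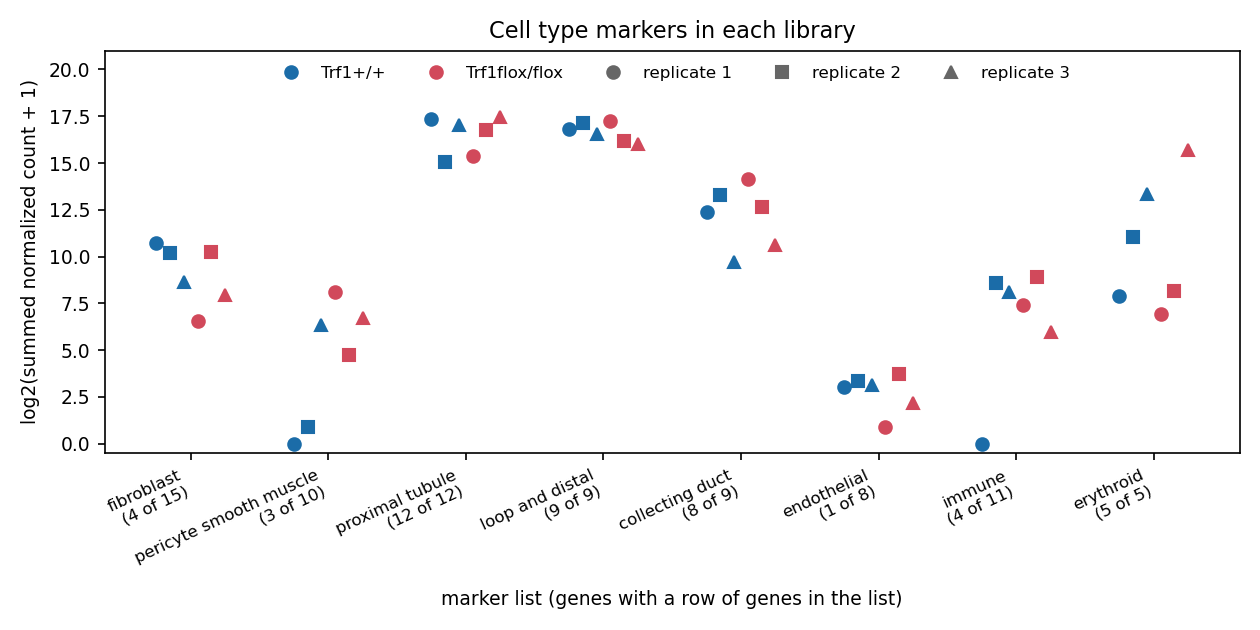
Summed normalized counts of each cell type marker list (vertical axis, log2 of the sum plus 1) in the 6 libraries, with Trf1+/+ in blue and Trf1flox/flox in red and the marker shape giving the replicate. The axis labels give the genes with a row out of those in the list. Proximal tubule sums lie between 33997 and 177864 and fibroblast sums between 94.5 and 1680.

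None of the receptors differed between the genotypes by an adjusted p under 0.05. The test was limma on log2(normalized count + 1) over 9966 genes, those that reached 10 normalized counts in 3 or more libraries, adjusted by Benjamini-Hochberg over all of them. Over all genes tested, 0 (0%) passed in limma at that threshold and 312 (3.13%) had an unadjusted p under 0.05, and among the 7 receptors tested none reached either. The receptor closest to that threshold was *Met*, whose 3 Trf1flox/flox libraries all lay above the 3 Trf1+/+ libraries. This was the only receptor of the 7 whose groups did not overlap, against 8.68% of all genes tested in either direction and 5.35% in that direction. An exact permutation test of 3 libraries against 3 cannot give a two-sided p below 0.1. Log2 fold changes, here always Trf1flox/flox over Trf1+/+, were above 0 for 7 of the 7 receptors tested, against 55.9% of all genes tested. This did not hold under every alternative: of 17, *Insr* was below 0 in 6, *Erbb4* in 3, *Erbb3* in 2 and *Fgfr1* in 1. The median of the receptors was 1.58 and that of all genes tested 0.20, but the receptor median was 0.46 in edgeR, 0.43 in DESeq2, and as low as 0.61 with 1 library left out (Trf1+/+ replicate 3).

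**Figure D2:**
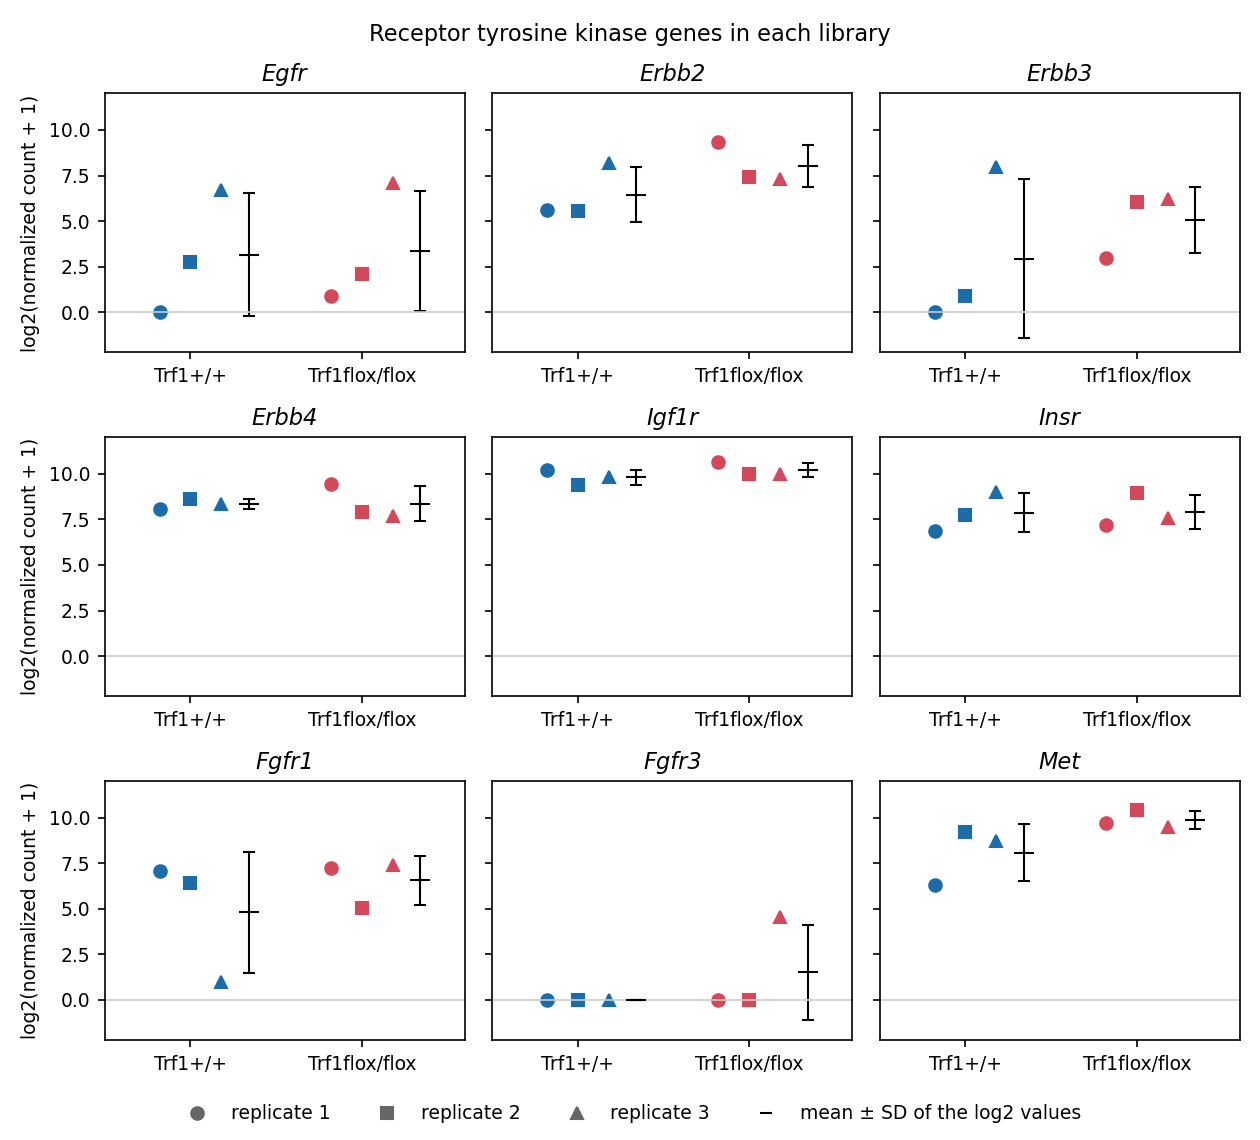
Level of each of the 9 receptors with a row, as log2(normalized count + 1) on the vertical axis, in the 3 Trf1+/+ (blue) and 3 Trf1flox/flox (red) libraries. Points are libraries, with the shape giving the replicate, and the bar is the mean ± SD of the log2 values (n = 3). *Igf1r* stays between 658 and 1596 normalized counts, *Egfr* exceeds 100 in only 1 library of each genotype, and the *Met* groups do not overlap.

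*Met*, the receptor for hepatocyte growth factor (ENSMUSG00000009376, chr6:17463800-17573980, plus strand, GRCm38), was at 77.5, 594 and 416 normalized counts over the Trf1+/+ libraries, and at 821, 1357 and 715 over the Trf1flox/flox libraries. Its mean was 362 ± 262 in Trf1+/+ and 965 ± 344 in Trf1flox/flox (SD, n = 3 each). The lowest Trf1flox/flox value lay above the highest Trf1+/+ value, and the library labelled Trf1+/+ replicate 1 was far below all others. The log2 fold change of *Met* was 1.79 (standard error 0.86, 95% interval -0.09 to 3.67, unadjusted p = 0.0605, adjusted p = 0.970 in limma). Leaving out the library labelled Trf1+/+ replicate 1, the one with the fewest genes above 0 and a single *Terf1* read, gave 0.90. Leaving out Trf1+/+ replicate 2 gave 2.36 (unadjusted p = 0.0250, adjusted p = 0.823 in limma). Without both libraries with the fewest genes above 0 in their genotype it was 0.62. Over all alternatives run, the adjusted p of *Met* lay between 0.687 and 1.00. *Hgf*, which encodes the ligand of this receptor, had no row.

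*Igf1r*, the receptor for the insulin-like growth factors (ENSMUSG00000005533, chr7:67952827-68233668, plus strand), was the steadiest of the receptors. It was at 1165, 658 and 914 normalized counts over the Trf1+/+ libraries and 1596, 1028 and 1023 over the Trf1flox/flox libraries, with means of 912 ± 254 and 1216 ± 330 (SD, n = 3 each). The groups overlapped, and the highest library was 2.43-fold above the lowest. These values rest on 794 to 1858 reads per library. The log2 fold change was 0.42 (standard error 0.55, 95% interval -0.77 to 1.61, adjusted p = 0.975 in limma). It was 0.20 without Trf1+/+ replicate 2, 0.21 without the library labelled Trf1flox/flox replicate 1 and 0.62 at most with another library left out. The standard deviation of *Igf1r* within genotypes was 0.39 on the log2 scale, and 3.25% of the genes tested had a smaller one.

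*Insr*, the insulin receptor and closest relative of *Igf1r* (ENSMUSG00000005534, chr8:3122061-3279617, minus strand), was at 116, 214 and 504 normalized counts over the Trf1+/+ libraries and 145, 499 and 193 over the Trf1flox/flox libraries. A single library of each genotype was near 500 and the other 4 lay between 116 and 214. Its means were nearly the same, 278 ± 202 and 279 ± 192 (SD, n = 3 each), with a log2 fold change of 0.06 (standard error 1.05, 95% interval -2.23 to 2.34, adjusted p = 0.998 in limma). The interval does not show that the genotypes were alike, since it reaches beyond a log2 fold change of 2 in both directions.

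Of the 4 ErbB receptors, *Erbb4* was the most even and *Egfr* and *Erbb3* were the most uneven. *Erbb4*, a receptor for neuregulins (ENSMUSG00000062209, chr1:68032186-69108059, minus strand), was at 272, 391 and 326 normalized counts over the Trf1+/+ libraries and 704, 240 and 206 over the Trf1flox/flox libraries. The Trf1+/+ values lay between the highest and the others of Trf1flox/flox, so that the groups overlapped fully. Its log2 fold change was 0.00 (standard error 0.87, 95% interval -1.89 to 1.89, adjusted p = 1.00 in limma), and it was -0.55 without the library labelled Trf1flox/flox replicate 1.

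*Erbb2*, which binds no ligand of its own and pairs with the other ErbB receptors (ENSMUSG00000062312, chr11:98412470-98437716, plus strand), had 47.2, 46.4 and 295 normalized counts in Trf1+/+. In Trf1flox/flox it had 651, 169 and 161. Trf1+/+ replicate 3 lay above 2 of the Trf1flox/flox libraries, so the groups overlapped, and the means were 129 ± 143 and 327 ± 281 (SD, n = 3 each). The log2 fold change was 1.58 (standard error 1.35, 95% interval -1.38 to 4.53, adjusted p = 0.970 in limma), and with 1 library left out in turn it lay between 0.92, without the library labelled Trf1flox/flox replicate 1, and 2.45, without Trf1+/+ replicate 3.

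*Erbb3*, a neuregulin receptor with weak kinase activity of its own (ENSMUSG00000018166, chr10:128567523-128589652, minus strand), was at 0, 0.829 and 252 normalized counts over the Trf1+/+ libraries and 6.87, 64.5 and 73.7 over the Trf1flox/flox libraries. The highest and the 2 lowest libraries were all Trf1+/+. The means, 84.4 ± 145 and 48.4 ± 36.2 (SD, n = 3 each), and the log2 fold change of 2.13 (standard error 2.57, 95% interval -3.48 to 7.73, adjusted p = 0.970 in limma) were opposite in sign. The log2 fold change of *Erbb3* was 4.64 without Trf1+/+ replicate 3 and 0.65 without the library labelled Trf1+/+ replicate 1. No direction between the genotypes can be read from these values.

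*Egfr*, the receptor for EGF (ENSMUSG00000020122, chr11:16752203-16918158, plus strand), was at 0, 5.80 and 105 normalized counts over the Trf1+/+ libraries and 0.859, 3.28 and 136 over the Trf1flox/flox libraries. It was high in replicate 3 of each genotype and at 7 reads or fewer in the other 4 libraries. It did not pass the filter on low values, and without that filter its log2 fold change was 0.20 (standard error 2.58, 95% interval -5.46 to 5.85). The same 2 libraries had the highest levels of the proximal tubule genes *Lrp2* (4000 and 6454 normalized counts, against 474 to 2548 in the other 4) and *Slc34a1* (9708 and 11167, against 1290 to 4957). They also had the highest sums of the 5 erythroid markers, 10472 and 52403 against 121 to 2150 normalized counts. The part of these cell types in the *Egfr* level was not tested.

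*Fgfr1*, a receptor for fibroblast growth factors (ENSMUSG00000031565, chr8:25513654-25575718, plus strand), was at 131, 82.9 and 0.985 normalized counts over the Trf1+/+ libraries and 148, 31.7 and 170 over the Trf1flox/flox libraries. The value of 0.985 in Trf1+/+ replicate 3 is a single read, and the other 5 libraries had 29 to 247 reads. The means were 71.6 ± 65.7 and 117 ± 74.3 (SD, n = 3 each). The log2 fold change was 1.75 (standard error 2.32, 95% interval -3.31 to 6.81, adjusted p = 0.977 in limma), and without Trf1+/+ replicate 3 it was -0.16. *Fgfr3* (ENSMUSG00000054252, chr5:33721674-33737068, plus strand), a receptor of the same family, was at 0 in 5 libraries and had 22.1 normalized counts, or 32 reads, in Trf1flox/flox replicate 3. It did not pass the filter, and in the 5 libraries at 0 its level was not detectable at this depth, a count of 0 allowing up to 2.49 to 3.28 normalized counts.

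**Figure D3:**
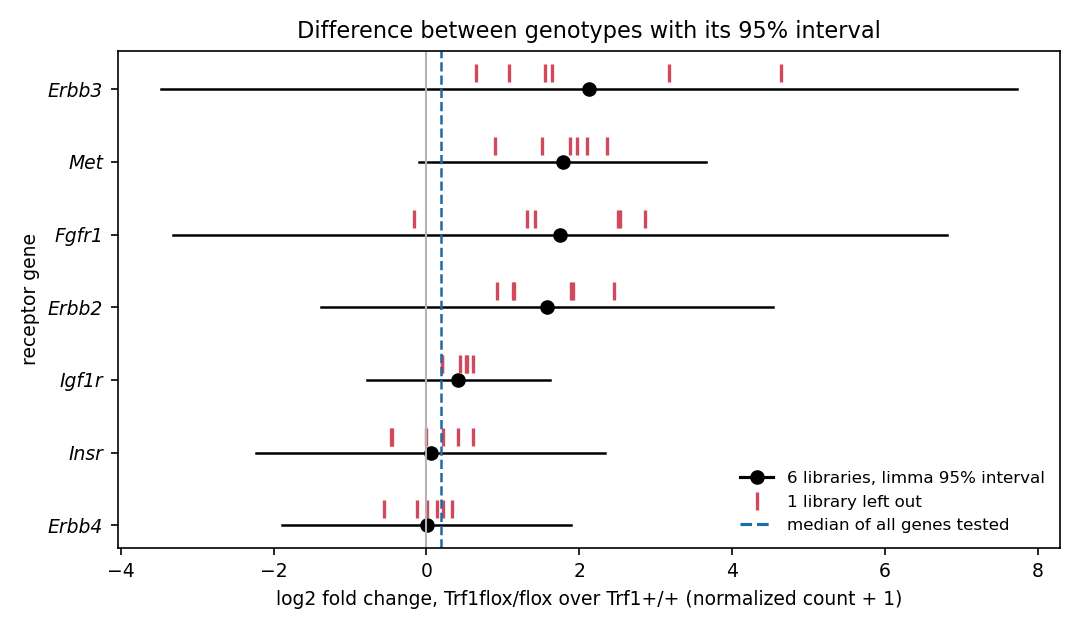
Log2 fold change of normalized count + 1, Trf1flox/flox over Trf1+/+ (horizontal axis), of the 7 receptors that passed the filter on low values. Black points and lines are the values over 6 libraries with their 95% limma intervals, red ticks the values with 1 library left out, and the blue dashed line the median of all genes tested, 0.20. All 7 intervals include 0, and the *Met* interval runs from -0.09 to 3.67.

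With levels divided by merged exon length, *Met* and *Igf1r* were the most abundant of the receptors. Over the 6 libraries the mean was 86.4 ± 55.8 normalized counts per kilobase for *Met* and 63.4 ± 18.5 for *Igf1r* (SD, n = 6 each, genotypes pooled). *Erbb2* followed with 43.8 ± 43.5, *Erbb4* with 28.9 ± 14.7, *Insr* with 20.3 ± 12.8, *Erbb3* with 11.0 ± 16.1 and *Fgfr1* with 9.53 ± 6.83 normalized counts per kilobase. *Egfr*, at 3.70 ± 5.45, and *Fgfr3*, at 0.513 ± 1.26, were the lowest. Neighbours in this order differed by less than their spread: each of *Met*, *Igf1r*, *Erbb2* and *Erbb4* was above the next receptor in 4 of 6 libraries, and *Erbb3* was above *Fgfr1* in 2 of 6. The order also differed between the genotypes. In Trf1+/+ the mean was 54.3 ± 15.1 normalized counts per kilobase for *Igf1r*, 47.2 ± 34.2 for *Met*, 26.7 ± 4.84 for *Erbb4* and 24.8 ± 27.5 for *Erbb2* (SD, n = 3). In Trf1flox/flox it was 126 ± 44.8 for *Met*, 72.4 ± 19.6 for *Igf1r*, 62.8 ± 53.9 for *Erbb2* and 31.0 ± 22.5 for *Erbb4* (SD, n = 3). *Met* was the highest receptor per kilobase in 3 libraries, *Erbb2* in 2 and *Igf1r* in the library labelled Trf1+/+ replicate 1.

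The summed level of the 9 receptors was 1808, 1993 and 2813 normalized counts over the Trf1+/+ libraries and 4074, 3394 and 2699 over the Trf1flox/flox libraries, and the groups overlapped. *Igf1r* made up 30.3% to 39.2% of this sum in 5 libraries and 64.4% in the library labelled Trf1+/+ replicate 1. The library labelled Trf1flox/flox replicate 1 had the highest *Igf1r*, *Erbb2* and *Erbb4* of all libraries. That library also had the highest levels of *Umod* and *Slc12a1*, genes of the thick ascending limb of the loop (80777 and 26372 normalized counts), and of *Aqp2*, the water channel of collecting duct principal cells (16844 against 0 to 1144 in the others). *Kcnj1* of the loop and distal list and *Aqp3* of the collecting duct list were also highest there, at 9958 and 655 normalized counts. The remaining markers of these lists were not highest there. *Slc12a3*, *Calb1* and *Wnk1* of the distal tubule had 17956, 11124 and 6376 normalized counts, and *Slc4a1*, *Slc26a4* and *Foxi1* of the collecting duct were at 0. The part of these cell types in the receptor levels was not tested. Of the 54 receptor values, 7 (13.0%) were at 0, the same share as among all listed values (13.0%). The median standard deviation within genotypes of the receptors tested was 1.16 on the log2 scale, against 2.17 for all genes tested.

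The genes around the receptors were taken from lists of other receptor tyrosine kinases, ligands, adaptors and signal relay, attenuators, and co-receptors with sheddases. None of the genes tested in these lists had an adjusted p under 0.05 in limma. Of 49 other receptor tyrosine kinases, 15 had a row and 10 were tested, 8 with a log2 fold change above 0 and 2 below, with a median of 1.23 and 1 with an unadjusted p under 0.05 (over all genes tested, 55.9% were above 0 and 3.13% had such a p). *Kit*, the receptor for stem cell factor, was at 1 read in each Trf1+/+ library and had 34.4, 1965 and 114 normalized counts in Trf1flox/flox (log2 fold change 6.72, which depends on the pseudocount, unadjusted p = 0.0136 and adjusted p = 0.970 in limma). *Fgfr2*, the epithelial relative of *Fgfr1*, was at 341, 232 and 118 normalized counts over the Trf1+/+ libraries and 18.9, 0 and 79.2 over the Trf1flox/flox libraries. Its groups did not overlap, in the direction opposite to *Kit* (log2 fold change -4.18, adjusted p = 0.970 in limma). *Ddr1*, a collagen receptor, was the most abundant of the list beside *Kit*, at 548, 401 and 52.2 and then 85.9, 1385 and 303 normalized counts.

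Of 26 ligands of the receptors, 11 had a row and 9 were tested, 5 above and 4 below 0 with a median log2 fold change of 0.06 and none with separate groups. *Egf*, the ligand of *Egfr* made by the distal tubule, was at 13072 to 31332 normalized counts in Trf1+/+ and 13692 to 22857 in Trf1flox/flox. *Fgf1* was at 394 to 1356 and 320 to 838 normalized counts. The *Egf* range includes the 4 libraries in which *Egfr* had 7 reads or fewer.

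Of 41 adaptors and relay genes, 33 had a row and 31 were tested, 13 above and 18 below 0, with a median log2 fold change of -0.73. The groups did not overlap for 6 of them, 3 in each direction, and 3 had an unadjusted p under 0.05, against 8.68% and 3.13% of all genes tested. Of the 6, *Nf1*, *Akt2* and *Grb2* were higher in all Trf1flox/flox libraries. *Nf1*, which switches Ras off, was at 6.23, 13.3 and 55.2 normalized counts over the Trf1+/+ libraries and 358, 1149 and 143 over the Trf1flox/flox libraries (log2 fold change 4.44). *Akt2*, a kinase of the insulin response, had 0.891, 60.5 and 0.985 and then 392, 346 and 193 (log2 fold change 5.60). *Grb2*, the adaptor that links receptors to Ras, had 1.78, 24.0 and 55.2 and then 400.4, 133 and 154 (log2 fold change 3.69). *Sos2*, an activator of Ras, was lower in all Trf1flox/flox libraries, with 622, 222 and 164 and then 86.8, 94.0 and 109.6 (log2 fold change -1.54). These 4 genes each had an adjusted p of 0.970 in limma. *Crk* and *Araf* were the most abundant of the list, and their groups overlapped, with log2 fold changes of -0.27 and -2.77.

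Of 39 attenuators, which dephosphorylate, degrade or block receptors, 31 had a row and 25 were tested, 15 above and 10 below 0 with a median log2 fold change of 0.29. The groups did not overlap for 3 (8.68% of all genes tested did not). *Ptprk*, a receptor tyrosine phosphatase, was at 1.78, 128 and 361 normalized counts over the Trf1+/+ libraries and 799.9, 711 and 400.4 over the Trf1flox/flox libraries (log2 fold change 3.60). *Cd2ap*, a scaffold of receptor endocytosis, had 1228, 906 and 399 and then 297, 181 and 391 (log2 fold change -1.46). *Ptprf*, a second phosphatase of this class, had 1309, 823 and 713 and then 641, 448 and 322 (log2 fold change -1.02). All 3 had an adjusted p of 0.970 in limma. *Nedd4*, a ubiquitin ligase, and *Grb14*, an inhibitor of the insulin receptor, were the most abundant and their groups overlapped, with log2 fold changes of 0.29 and -0.86. Of 20 co-receptors and sheddases, 15 had a row and 12 were tested, 8 above and 4 below 0, with a median of 0.20 and none with separate groups. The most abundant were *Igfbp7*, which binds insulin-like growth factors, at 1767 to 10863 normalized counts, and the heparan sulfate carrier *Sdc4*, at 1410 to 3480.

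**Figure D4:**
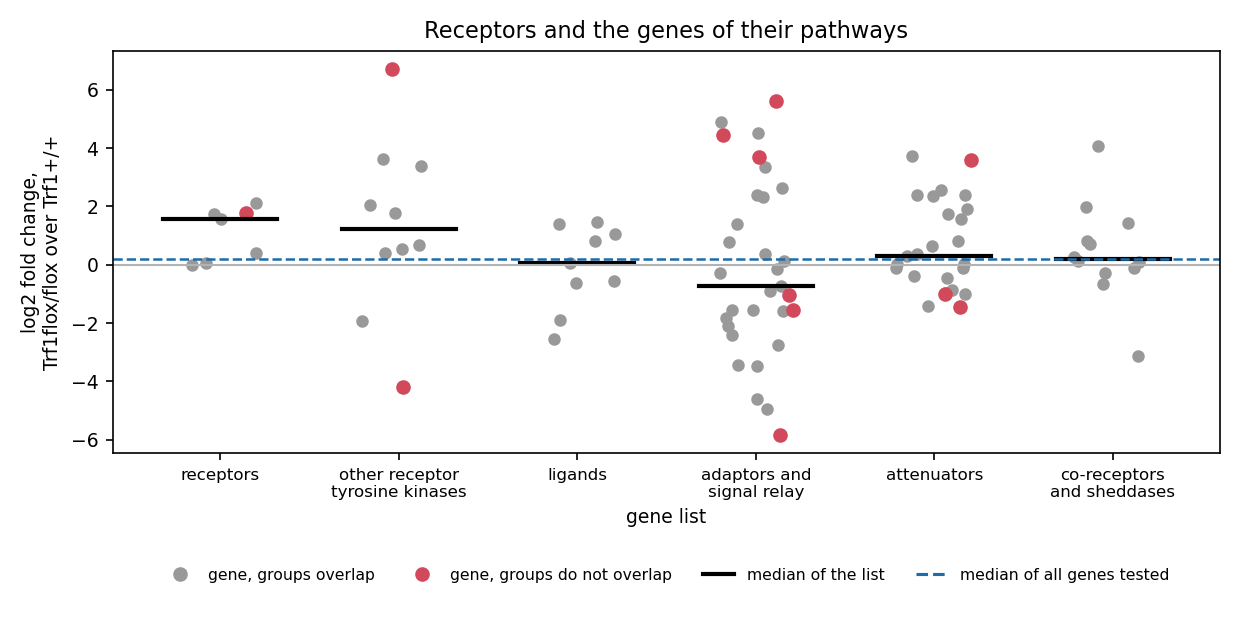
Log2 fold change of normalized count + 1, Trf1flox/flox over Trf1+/+ (vertical axis), of each tested gene of the receptors and of the 5 other lists (horizontal axis, points spread sideways for legibility only). Red points are genes whose 3 libraries of one genotype all lie above the 3 of the other, black bars the median of each list and the blue dashed line the median of all genes tested, 0.20. The list medians run from -0.73 for adaptors and signal relay to 1.58 for the receptors.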

How the data were processed

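RNA of 500 sorted cells per library was primed with oligo(dT), copied with template switching and amplified by PCR without molecular identifiers, and the libraries are not stranded, so overlapping genes on opposite strands cannot be told apart. The authors trimmed the reads, aligned them with TopHat2 2.0.10, Bowtie 1.0.0 and SAMtools 0.1.19 and counted them on GENCODE genes with HTSeq 0.6.1. Their methods name GRCm38 and their processing notes GRCm39. The authors deposited 1 table of normalized counts, a signal scaled by size factors rather than raw counts. In every library 100% of the values were whole multiples of the value of 1 read (tolerance 0.01 reads), so reads were recovered for edgeR and DESeq2.

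Groups follow the genotype labels, and nothing beyond separate libraries labels the replicates, so p-values measure the spread between these libraries. limma 3.58.1 with an intensity trend (R 4.3.3) was fitted across all 9966 genes that reached 10 normalized counts in 3 or more libraries, with a pseudocount of 1 and a threshold of 0.05. It was also run on simulated counts that were set to vary less between libraries than these data. That run does not show how often limma would find a true difference here. A fold change of low genes depends on the pseudocount: that of *Erbb3* was 2.58, 2.13 and 1.04 on the log2 scale with pseudocounts of 0.5, 1 and 5. It is not always smaller than in other tests. *Fgfr1* was 1.75 in limma, 0.83 in edgeR and 0.73 in DESeq2, while *Igf1r* was 0.42, 0.46 and 0.43. Alternatives were other pseudocounts, filters and scalings, edgeR 4.0.16, DESeq2 1.42.0, limma without trend or with library weights, and fewer libraries. Gene positions, exon lengths and the loop sequences are from a GENCODE annotation of GRCm38 matched by symbol. All receptors were named whatever their values. Of each other list, the genes named were those whose groups did not overlap (at most 5, by p) and the 2 with the highest mean. A gene that this rule names is not reported here. The receptors and lists were chosen with earlier results of these data known.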

Additional observations from a re-analysis of the deposited data

How the results depend on the processing

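No receptor given an adjusted p passed 0.05 under the 17 alternatives, and DESeq2 gave none for *Erbb3*. Over all genes, limma and edgeR called 0 (312 and 196 at an unadjusted p under 0.05) and DESeq2 called 58 (410 unadjusted). The median log2 fold change of the receptors, 1.58, was 0.46 in edgeR and 0.43 in DESeq2, where the median of all genes was -0.04 and -0.05. It was 0.62 without both libraries with the fewest genes above 0 in their genotype, and 0.61 to 1.51 with 1 library left out. The number of receptors whose groups did not overlap was then 4, against 29.4% of all genes, and 1 to 3 with 1 library left out, against 15.2% to 24.4%. Upper quartile scaling moved the median of all genes from 0.20 to 0.44.

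Of 119 gene values, 107 kept their direction and 12 reversed. *Erbb3* was -0.81 in both edgeR and DESeq2. *Insr* was -0.050 in edgeR, -0.42 with library weights, -0.97 without both libraries and -0.47 to 0.61 with 1 library left out. *Erbb4* was -0.26 with library weights and -0.55 to 0.33 with 1 left out, and *Fgfr1* -0.16 to 2.87. The causes were not tested. No paired analysis was possible because the labels carry no replicate numbers. *Egfr*, *Erbb3* and *Fgfr3* were each at 3 reads or fewer in 2 to 5 libraries. Among these was the library labelled Trf1+/+ replicate 1, which had the most reads but the fewest genes above 0.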

Other observations

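The gene whose pattern over the 6 libraries was closest to each receptor, by the mean absolute difference of the log2 levels after centring each gene on its own mean, was *Nat9* for *Igf1r* (0.0819), *Txndc5* for *Erbb4* (0.150) and *Vezf1* for *Met* (0.192). It was *Get1* for *Erbb2* (0.229), *Gm47551* for *Insr* (0.239), *Prcp* for *Erbb3* (0.386) and *Zmynd11* for *Fgfr1* (0.468). *Vezf1* was at 31.2, 381 and 288 normalized counts over the Trf1+/+ libraries and 541, 893 and 420.4 over the Trf1flox/flox libraries. *Nat9* had 239.6, 129 and 193 and then 284, 219.7 and 193. These are the closest of 9966 genes over 6 libraries that share their depth and size factors, and they carry no test.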
